A study of Mus musculus with 2 samples.

Results

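Olfactory receptor (Olfr) genes form the largest gene family of the mouse, and the CpGs described here are the measured CpGs that lie within an autosomal Olfr gene or within 2 kb to either side of it. Genes were taken by symbol from the GENCODE annotation of the mm9 (NCBIM37) genome, which holds 1243 autosomal Olfr gene models under 1241 symbols, 1106 of them protein coding and 132 pseudogenes. Their windows contained 1127 of the 1790826 CpGs in the table. These fell in 267 models (21.5%), and the other 976 models had no measured CpG. The median was 3 CpGs per measured model and the maximum was 37. The 1127 CpGs are 3.27% of the 34496 CpGs that the genome sequence holds in the Olfr windows, so most Olfr sequence was not sampled.

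The study profiled DNA methylation by reduced representation bisulfite sequencing, in which bisulfite turns unmethylated cytosine into a base read as thymine and only a selected fraction of the genome is sequenced, in mouse embryonic fibroblasts (MEFs). Dnmt1+/+ MEFs were compared with Dnmt1-/- MEFs, which carry a hypomorphic Dnmt1 allele on both chromosomes, so that the label does not stand for a complete deletion. The lines of both genotypes also lack trp53, the gene for p53, and the Dnmt1+/+ cells are therefore trp53-null controls and not wild-type cells at that locus. Each genotype was 1 library, with 74636195 cytosine calls over the CpGs of the table in Dnmt1+/+ and 78401157 in Dnmt1-/- MEFs. There were no replicates, so Fisher's exact test below compares these libraries and not the genotypes, and all intervals are 95% Wilson intervals of pooled calls that cover counting error only.

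Each mature olfactory sensory neuron expresses a single Olfr allele, whose product is a G protein-coupled receptor for odorants; the remaining Olfr genes are silent in that cell, and the family as a whole is largely silent in fibroblasts. Most Olfr genes are short, lie in long tandem clusters and have promoters poor in CpGs. DNMT1 copies methylation onto the new DNA strand after replication, and DNA that is replicated without it loses methylation passively.

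The coding sequence of Olfr genes carries some of its CpGs at fixed places. The motif MAYDRY, at the inner end of the third transmembrane helix, is a hallmark of the receptor family, and its arginine codon can be CGN. Of 1075 protein-coding Olfr models whose coding sequence began with ATG, 484 (45.0%) encoded an exact MAYDRY, and in 398 of these (82.2%) the arginine codon began with CG. That CpG was measured in 3 genes. Their codons are shown because they place the same CpG in the same codons of different receptors (mm9, minus strand, 5′ to 3′, with the measured CpGs in capitals).

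Olfr1362, chr13:21703462-21703491: gctgtcatggcttatgacCGctatgctgcc

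Olfr464, chr11:87728032-87728061: tcCGtgatggcctatgacCGctacatagcc

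Olfr284, chr15:98171002-98171031: gcagCGatggcctatgacCGctaCGttgcc

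In Olfr1362 the arginine CpG was methylated in 100% of 31 calls in Dnmt1+/+ and in 0% of 20 calls in Dnmt1-/- MEFs. In Olfr464 it went from 100% of 31 calls to 16.2% of 37 calls. In Olfr284 it went from 94.4% of 36 calls to 75% of 20 calls, a difference that did not pass the test (adjusted p = 0.16, Fisher's exact test, 2-sided, Benjamini-Hochberg over the whole table). The same CpG of the same motif thus passed the test in 2 of the 3 genes and ended at different levels.

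Further coding stretches are shown for genes with some of the largest falls (Olfr1509, a receptor with a known ligand, and Olfr317), for Olfr78, another such receptor that ended near the median of the family, for genes that were among the highest in Dnmt1-/- MEFs (Olfr225, Olfr455 and Olfr315) and for the gene that had least to lose (Olfr94). Olfr1509 and Olfr225 and Olfr315 are on the plus strand and the others on the minus strand of mm9, each is given 5′ to 3′ in the direction of the gene, and capitals mark measured CpGs.

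Olfr1509, chr14:53070759-53070796: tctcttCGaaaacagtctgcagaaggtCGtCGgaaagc

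Olfr78, chr7:109891116-109891161: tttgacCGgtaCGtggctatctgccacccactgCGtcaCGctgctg

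Olfr317, chr11:58546560-58546614: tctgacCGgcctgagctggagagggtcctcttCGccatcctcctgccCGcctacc

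Olfr225, chr11:59426960-59427008: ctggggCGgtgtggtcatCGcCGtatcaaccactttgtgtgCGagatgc

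Olfr455, chr6:42488161-42488209: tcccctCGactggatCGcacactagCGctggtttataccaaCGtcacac

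Olfr315, chr11:58592280-58592330: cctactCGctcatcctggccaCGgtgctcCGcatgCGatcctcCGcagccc

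Olfr94, chr17:37334187-37334246: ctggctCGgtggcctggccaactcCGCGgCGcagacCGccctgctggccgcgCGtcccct

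In these letters the first measured CpG of Olfr1509 lies in TCGA and the first of Olfr78 and of Olfr317 lies in CCGG. These are the recognition sequences of TaqI and MspI, and CpGs inside them read higher than others where methylation is low, in both libraries. Among CpG-dense CpGs of other protein-coding genes (10 or more neighbouring CpGs within 100 bp to either side), the Dnmt1+/+ mean was 57.1% inside CCGG or TCGA and 11.0% outside. The Dnmt1-/- means were 53.8% and 5.65%. Over all Olfr CpGs, which were highly methylated in Dnmt1+/+, the Dnmt1+/+ means were close, at 83.6% inside and 81.1% outside. Olfr94 shows it locally. The CpG at position 37334239, the first in its stretch, read 6.52% in Dnmt1+/+ and 2.08% in Dnmt1-/- MEFs, and the CCGG just before it at position 37334254 read 66.7% and 75%. What raised these readings was not tested. Of the Olfr CpGs 60.9% lay in CCGG or TCGA, against 38.8% of the CpGs of other protein-coding genes, so the 441 Olfr CpGs outside both sequences are given separately throughout and carry most of the description.

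Olfr CpGs were highly methylated in Dnmt1+/+ MEFs and lost most of it in Dnmt1-/- MEFs. The mean methylation level of the 441 CpGs outside CCGG and TCGA was 81.1% in Dnmt1+/+ and 15.2% in Dnmt1-/- MEFs, so that Dnmt1-/- cells kept 18.8% of the Dnmt1+/+ level. The CpGs of other protein-coding genes outside these sequences went from 35.7% to 13.8%, a lower start and a similar end. Pooled Olfr calls gave 80.6% (79.9 to 81.3%) and 15.5% (14.9 to 16.1%). Over all 1127 CpGs the means were 82.6% and 38.8%, and for the 686 CpGs in CCGG or TCGA they were 83.6% and 53.9%. The median depth at Olfr CpGs was 23 calls in each library, and at that depth a count of 0 allows a level of up to 13%, taken as 3 calls of the total and not as a Wilson limit.

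Most Olfr CpGs moved from the high to the low end of the scale. Of these 441 Olfr CpGs, 69.6% were at 80% or more in Dnmt1+/+ and 4.31% at 20% or less. In Dnmt1-/- MEFs 1.13% were at 80% or more and 72.6% at 20% or less. Among such CpGs of other protein-coding genes 76.7% were at 20% or less in Dnmt1-/- MEFs, but 59.5% already were in Dnmt1+/+, so Olfr differed in where its CpGs began more than in where they ended. In Dnmt1-/- MEFs 148 of these CpGs (33.6%) had no methylated call at all, against 2 in Dnmt1+/+, and the Dnmt1-/- share in other genes was 39.6%. In Dnmt1+/+ 93 were fully methylated, and in Dnmt1-/- none was.

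**Figure D1:**
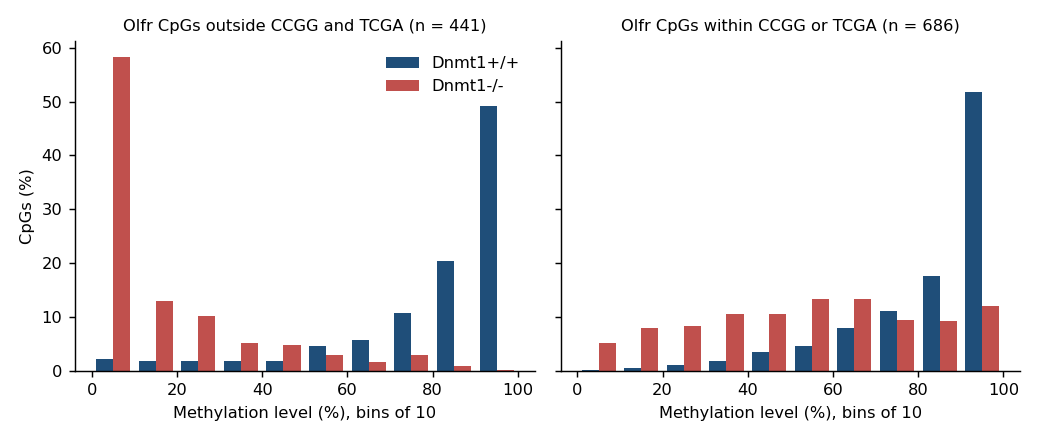
Distribution of methylation levels (x axis, %, bins of 10) over Olfr CpGs, as the percent of CpGs in each bin (y axis), in the Dnmt1+/+ library (blue) and the Dnmt1-/- library (red), for the 441 CpGs outside CCGG and TCGA (left) and the 686 inside (right). Outside these sequences most CpGs moved from the right end to the left end, with 72.6% at 20% or less in Dnmt1-/-; inside them the Dnmt1-/- values spread over the whole axis around a mean of 53.9%.

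The Olfr CpGs that passed the test were all lower in Dnmt1-/- MEFs. Fisher's exact test called 701 of the 1127 Olfr CpGs (62.2%) lower in Dnmt1-/- MEFs, against 43.7% of all CpGs of the table, at an adjusted p under 0.05. It called none higher, against 0.462% of the table, and none was higher at an unadjusted p under 0.05 either. The Dnmt1-/- value was the higher at 67 Olfr CpGs, 2 of them outside CCGG and TCGA. Of those outside CCGG and TCGA, 391 of 441 (88.7%) were lower, against 44.2% of such CpGs in the table, and the share called higher in the table was 0.635%. Inside them 45.2% of the Olfr CpGs were lower, against 43.1% of such CpGs in the table.

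Part of that contrast with the table goes with the starting level. Among CpGs outside CCGG and TCGA that were at 80% or more in Dnmt1+/+, 291 of 307 Olfr CpGs (94.8%) were called lower, against 88.2% in the table. These 307 Olfr CpGs went from 93.1% to 19.0%, while the CpGs of other protein-coding genes in the same class went from 95.2% to 36.7%. The 115 Olfr CpGs that were between 20% and 80% in Dnmt1+/+ went from 61.1% to 7.50%, and those of other genes from 52.7% to 16.3%. The 19 that were at 20% or less ended at 1.88%, and those of other genes at 1.93%. In the 2 higher classes the Olfr CpGs ended lower than the CpGs of other genes, and the counting interval of the high class (18.8 to 20.4%) lay well below that of other genes (36.9 to 37.0%).

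Olfr CpGs also differ from those of other genes in their surroundings, having fewer CpGs nearby. The mean number of neighbouring CpGs within 100 bp to either side was 4.30 for all Olfr CpGs and 11.8 for CpGs of other protein-coding genes, many of which lie in CpG islands. In 4 density classes the comparison outside CCGG and TCGA was as follows. With 0 to 2 neighbours, 58 Olfr CpGs went from 80.7% to 8.60% and those of other genes from 84.4% to 24.8%. With 3 to 4 neighbours, 124 Olfr CpGs went from 80.1% to 12.3% and those of other genes from 82.4% to 27.4%.

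The sparse CpGs of both kinds thus began at similar levels, and the Olfr CpGs ended lower. With 5 to 9 neighbours, 182 Olfr CpGs went from 85.9% to 19.2% and those of other genes from 70.1% to 27.1%. With 10 or more neighbours, 77 Olfr CpGs went from 71.8% to 15.6%, whereas those of other genes, mostly unmethylated at the start, went from 11.0% to 5.65%. In this densest class 61.0% of the Olfr CpGs were at 80% or more in Dnmt1+/+, against 6.66% in other genes. The class was not matched in density, as the mean number of neighbours was 13.8 for Olfr and 21.0 for other genes. Some of the densest Olfr CpGs, in Olfr94, were nearly unmethylated, as described below. When only CpGs at 80% or more in Dnmt1+/+ were taken, the Dnmt1-/- means from the lowest to the highest density were 8.65%, 16.3%, 22.2% and 22.1% for Olfr and 29.7%, 33.1%, 38.1% and 44.4% for other genes. Part of the Olfr level in the denser classes came from few models, as given below.

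**Figure D2:**
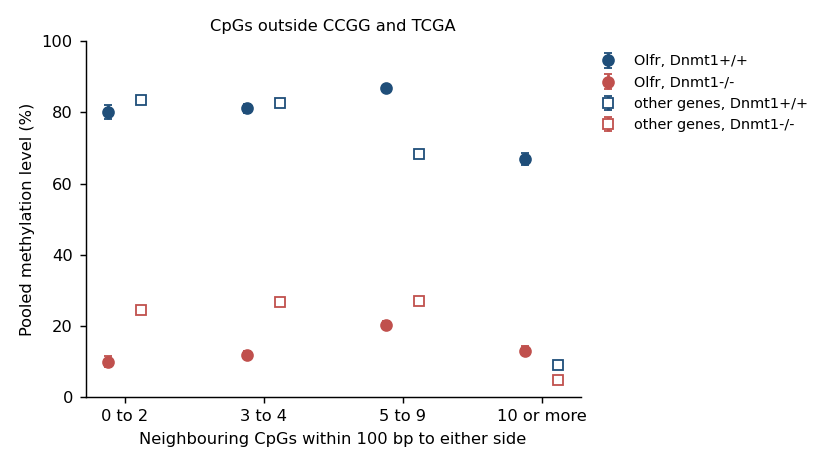
Pooled methylation level (y axis, %) of CpGs outside CCGG and TCGA by the number of neighbouring CpGs within 100 bp to either side (x axis), for Olfr (filled circles) and other protein-coding genes (open squares) in Dnmt1+/+ (blue) and Dnmt1-/- (red); bars are 95% Wilson intervals and are mostly hidden by the symbols. Olfr stays high in Dnmt1+/+ in all 4 classes while other genes fall in the densest, and the Dnmt1-/- level of Olfr is below that of other genes in the 3 sparser classes and above it in the densest.

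The bases beside the CpG went with the remaining level too. Of the 441 Olfr CpGs, 57 with A or T on both sides ended at 9.12%, 238 with A or T on 1 side at 13.1%, and 146 with C or G on both sides at 21.1%, from 79.3%, 80.7% and 82.6% in Dnmt1+/+. In other genes the order was the reverse, at 16.4%, 15.4% and 11.6% from starting levels of 53.9%, 42.2% and 24.3%. Among CpGs at 80% or more in Dnmt1+/+ the 3 classes had the same order in both, at 12.2%, 16.3% and 25.4% for Olfr and 30.2%, 34.7% and 44.4% for other genes. This split was made after the values had been seen.

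By position in the gene, the 441 CpGs divided into 172 of coding sequence, which went from 82.2% to 19.7%, 66 of other exons, introns and pseudogene bodies, from 85.9% to 16.2%, 86 in the 2 kb upstream, from 76.7% to 12.4%, and 117 in the 2 kb downstream, from 80.2% to 10.2%. Few genes weighed on the coding value. Without the 5 models with the highest Dnmt1-/- levels (Olfr268-ps1, Olfr455, Olfr225, Olfr315 and Olfr284, described below), the Dnmt1-/- mean was 13.9% over 144 CpGs of coding sequence and 13.4% over 62 of other exons, introns and pseudogene bodies, and the upstream and downstream values, which hold no CpG of these models, stayed at 12.4% and 10.2%. Over all Olfr CpGs outside CCGG and TCGA the Dnmt1-/- mean went from 15.2% to 12.4% without these models. Among those at 80% or more in Dnmt1+/+ it went from 19.0% to 15.3%. By density it went from 19.2% to 14.04% with 5 to 9 neighbours and from 15.6% to 12.6% with 10 or more. In the sparser classes it changed little, from 8.60% to 8.02% with 0 to 2 neighbours and staying at 12.3% with 3 to 4. These models were picked for their high level, so the lower means without them follow from the choice and show only their weight. With 5 or more neighbours, coding sequence was at 24.8% with these models and at 15.6% without them, other exons, introns and pseudogene bodies at 17.6% and 11.3%, upstream sequence at 14% and downstream sequence at 12%. With 4 or fewer neighbours, the 4 parts in the same order were at 12.4%, 14.9%, 9.54% and 7.18% with all models.

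Within codons, again outside CCGG and TCGA, 66 CpGs on bases 1 and 2 (as in the arginine codon above) went from 84.6% to 23.3%, 34 on bases 2 and 3 from 76.1% to 12.4%, and 66 that join base 3 to the next codon from 82.6% to 21.5%. Without the same 5 models the Dnmt1-/- means were 16.2%, 8.03% and 16%. Protein-coding models and pseudogenes had similar levels. Outside these sequences, 394 CpGs of protein-coding Olfr models went from 81.6% to 15.2% and 47 CpGs found only in pseudogenes or processed transcripts from 77.0% to 15.9%.

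The autosomal Olfr models formed 50 clusters when a gap of more than 1 Mb divided neighbours, and 37 clusters had a measured CpG. The 17 clusters with at least 20 CpGs, named below by chromosome and order along it, held 942 CpGs, and the mean was lower in Dnmt1-/- MEFs in all 17. Counting all CpGs, a cluster's Dnmt1+/+ mean was at least 67.3% and at most 89.2%, and its Dnmt1-/- mean at least 30.4% and at most 46.5%. CpGs in CCGG or TCGA had Dnmt1-/- means of 50.5% to 59.4% in these clusters. Their readings are raised as described above, so this range cannot be set beside that of the other CpGs.

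Outside CCGG and TCGA, among the 13 clusters with at least 10 such CpGs, cluster 9-2 (97 models, chromosome 9) ended lowest, going from 85.3% to 5.8% over 28 CpGs. The largest cluster, 2-2 on chromosome 2 with 268 models, went from 76.1% to 9.8% over 50 CpGs. At the other end, cluster 11-4 on chromosome 11 went from 85.9% to 24.4% over 52 CpGs and cluster 11-1 from 91.2% to 24.6% over 22. Cluster 6-2 went from 86.5% to 24.6% over 12 CpGs, and its pooled Dnmt1-/- interval was higher than this mean, at 39.9 to 48.8%. Clusters with similar starting levels thus ended apart, and the pooled intervals of 9-2 (4.4 to 7.2%) and 11-4 (25.1 to 28.9%) did not overlap.

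Single genes carried several of these cluster values. Without Olfr455, cluster 6-2 on chromosome 6 went from a Dnmt1-/- mean of 24.6% to 7.0%, and without Olfr38 to 40.8%. Without Olfr406-ps, cluster 11-5 went from 7.0% to 1.67%, below cluster 9-2. Without Olfr743, cluster 14-2 went from 12% to 5.5%, and without Olfr524, cluster 7-7 from 11.2% to 7.3%. Without Olfr225, cluster 11-4 went from 24.4% to 16.4%, and without Olfr284, cluster 15-1 went from 16.4% to 8.5%. Cluster 17-2, next to the major histocompatibility complex, had the lowest Dnmt1+/+ mean of the 13 at 54.3%, and without Olfr94 that mean was 80.1%. Cluster 9-2 was less dependent on 1 gene, staying between 4.5% and 6.3%.

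Class I receptors, the fish-like olfactory receptors, lie together in the chromosome 7 cluster that surrounds the beta-globin genes (7-5, 145 models, chr7:109625287-112517869). Its 49 CpGs outside CCGG and TCGA went from 83.5% to 21.6%, and the 392 such CpGs of the remaining Olfr clusters from 80.8% to 14.4%. The pooled Dnmt1-/- intervals were 19.7 to 24.7% and 14.3 to 15.5%. The mean number of neighbouring CpGs was 4.06 in this cluster and 6.50 in the others, and its part in the difference was not tested. The higher level was not particular to this cluster, since clusters 4-1, 11-4, 6-2 and 11-1 ended at 22.3% to 24.6%.

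**Figure D3:**
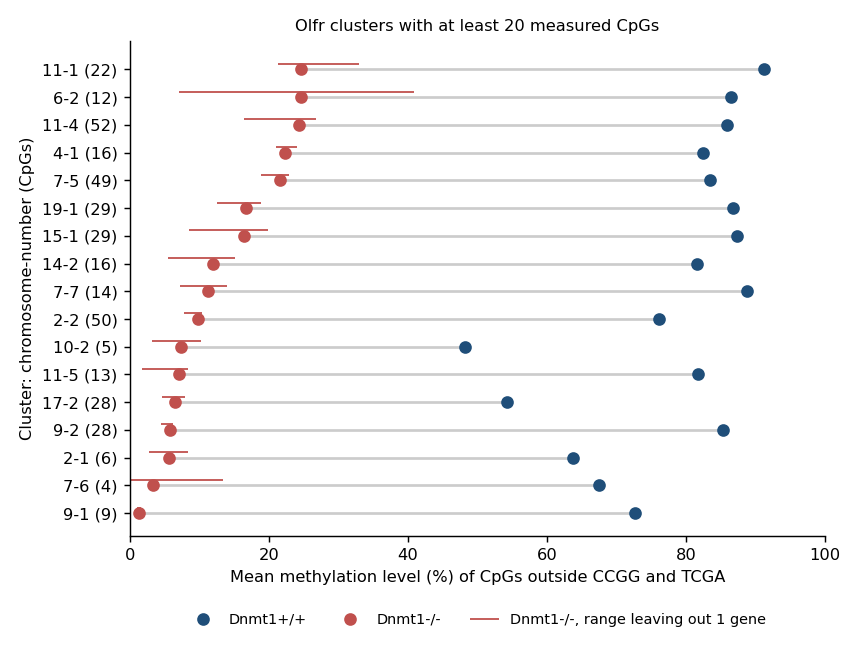
Mean methylation level (x axis, %) of CpGs outside CCGG and TCGA in the 17 Olfr clusters with at least 20 measured CpGs (y axis: chromosome and order, with the number of CpGs), in Dnmt1+/+ (blue) and Dnmt1-/- (red); thin red lines give the range of the Dnmt1-/- mean when 1 gene at a time is left out. All clusters are lower in Dnmt1-/-, and the line of cluster 6-2 reaches down to 7.0%.

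The DNA between the Olfr windows of a cluster behaved much like the windows. Outside CCGG and TCGA and away from other protein-coding genes, 3172 CpGs between the windows went from 74.0% to 13.2%, keeping 17.9% of the Dnmt1+/+ level against 18.8% in the Olfr windows. In the 500 kb outside the clusters, likewise away from protein-coding genes, 5982 CpGs went from 65.5% to 17.6% and kept 26.8%. Including other genes, the CpGs between the windows kept 21.0% and those in the 500 kb outside 36.3%, with Dnmt1+/+ means of 54.3% and 38.3%.

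Other chemosensory receptor families offered the nearest comparison. Vomeronasal receptors detect pheromones in a separate sensory organ. The 280 CpGs of Vmn2r genes outside CCGG and TCGA went from 73.2% to 10.2% and the 129 of Vmn1r genes from 44.2% to 5.32%. The 19 such CpGs of the trace amine-associated receptors (Taar), which are also expressed in the olfactory epithelium, went from 90.6% to 24.3%. Bitter taste receptors (Tas2r) had no CpG outside CCGG and TCGA, and their 22 CpGs inside went from 81.1% to 52.5%, near the Olfr values for such CpGs. Olfr lay between Vmn2r and Taar in both libraries.

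At the level of genes the loss was nearly general. Of 83 Olfr models with at least 5 CpGs, 81 were lower by at least 25 percentage points in Dnmt1-/- MEFs (97.6%), against 46.3% of all autosomal gene models with at least 5 CpGs, and none was higher, against 0.048%. The remaining 2 were Olfr94 and Olfr820, which had the lowest Dnmt1+/+ levels. In 61 models with at least 3 of these CpGs outside CCGG and TCGA, the median level of those CpGs was 87.4% (quartiles 79.0 and 93.1%) in Dnmt1+/+ and 11.7% (quartiles 5.05 and 23.4%) in Dnmt1-/- MEFs. Of the 61, 59 fell by at least 25 points, against 45.3% of all such gene models, and 51 by at least 50 points, against 22.1%. In Dnmt1-/- MEFs 28 of them were under 10% and 3 were over 50%, or 29 and 2 when calls were pooled. Over all 21635 such gene models 49.1% were under 10% and 3.3% over 50%, with a median of 10.3%. Those models began at a median of 36.0%, against 87.4% for Olfr, so similar end levels followed unlike starting levels. Models that begin low cannot fall by 25 or 50 points, so the shares above are not matched for the starting level.

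**Figure D4:**
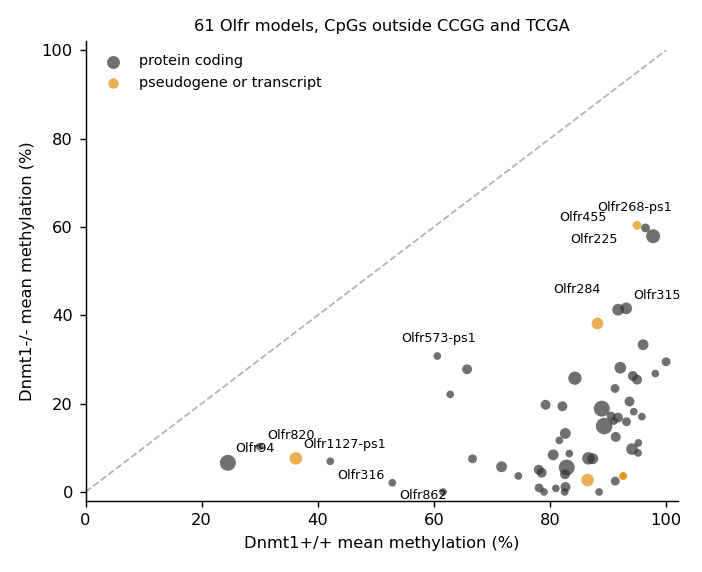
Mean methylation level of CpGs outside CCGG and TCGA in Dnmt1+/+ (x axis, %) and Dnmt1-/- MEFs (y axis, %) for 61 Olfr models, with area in proportion to the number of CpGs and pseudogenes in orange; the dashed line marks equal levels. Every point lies below the line, 28 models are under 10% in Dnmt1-/-, and Olfr268-ps1, Olfr455 and Olfr225 stand apart above 50%.

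The largest falls left almost no methylation. Olfr1509, the MOR244-3 receptor for the mouse urine odorant (methylthio)methanethiol, had 4 CpGs outside CCGG and TCGA, all in its coding sequence (chr14:53070068-53071077), and went from 91.2% to 2.45%. At the pair of neighbouring CpGs in its stretch above, the level went from 80% and 100% of 20 calls to 4.55% and 0% of 22 calls. Olfr1362 (chr13:21702889-21703873) went from 88.5% to 0% over 3 CpGs, with no methylated call among 70 in Dnmt1-/- MEFs (Wilson interval 0 to 5.20%). Olfr317 (chr11:58545598-58546725) went from 95.2% to 8.82% over 3 CpGs, and the pseudogenes Olfr1077-ps1 and Olfr1078-ps1, whose windows share the same 3 CpGs, from 92.6% to 3.61%.

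Of 12 receptors with known ligands or a history in the field that were looked for, 2 were measured, Olfr1509 and Olfr78. Olfr78, a class I receptor also expressed outside the nose and described as a sensor of short-chain fatty acids, lies in the beta-globin cluster and went from 95.2% (interval 86.9 to 98.4%) to 11.1% (6.32 to 18.8%) over 3 coding CpGs. In its stretch above, the CpGs went from 95.2%, 100% and 90.5% of 21 calls to 21.2%, 6.06% and 6.06% of 33 calls, while the leading CCGG went from 100% to 76.5%. All 3 CpGs outside CCGG thus fell, to unequal levels.

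By the mean over CpGs, the genes with the highest Dnmt1-/- levels were Olfr268-ps1 on chromosome 2 (95% to 60.4%, 4 CpGs), Olfr455 on chromosome 6 (96.5% to 59.8%, 4 CpGs), Olfr225 (97.8% to 57.9%, 10 CpGs) and Olfr315 (93.1% to 41.6%, 7 CpGs) on chromosome 11, and Olfr284 on chromosome 15 (91.7% to 41.3%, 7 CpGs). When calls were pooled instead, Olfr455 (61.2%) and Olfr225 (60.7%) came first and Olfr268-ps1 was at 47.4%, since its most deeply read CpG was at 11.4% of 35 calls and the other 3, which lie close together, at 71.4% to 80% of 14 to 15 calls. All except Olfr268-ps1 have their measured CpGs in coding sequence. These are losses too, but of a different size from those of Olfr1509 or Olfr1362. In the stretch of Olfr225 above, the 4 CpGs were at 100%, 100%, 98.2% and 100% in Dnmt1+/+ and at 73.2%, 53.6%, 70.1% and 74.5% in Dnmt1-/- MEFs, with 45 to 112 calls each. In that of Olfr455, the 3 CpGs outside TCGA went from 95.2%, 96.8% and 95.3% to 37.5%, 45.3% and 67.2%, with 63 to 128 calls each.

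Levels changed over short distances in these genes. In Olfr315 the 5 measured CpGs of the stretch above ended, in reading order, at 9.09%, 38.6%, 65.9%, 56.8% and 75% of 44 calls, from 78.1%, 98.6%, 98.6%, 95.8% and 100%. In Olfr284, whose next stretch upstream of its MAYDRY codons is shown for this contrast, neighbouring CpGs ended far apart.

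Olfr284, chr15:98171015-98171074: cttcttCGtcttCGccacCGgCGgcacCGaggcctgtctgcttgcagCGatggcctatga

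In reading order, its first 2 CpGs went from 97.7% and 100% of 44 calls to 14.3% and 9.52% of 42 calls. The CCGG that follows went from 98.8% to 83.9%. The next 3 went from 88.9%, 97.2% and 66.7% of 36 calls to 20%, 55.0% and 55.0% of 20 calls. The Dnmt1-/- level therefore rose from under 15% to over 50% within this stretch, and the arginine CpG just beyond it was at 75%.

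The genes of cluster 11-4 show that near neighbours can differ. Olfr317 (chr11:58545598-58546725), Olfr316 (chr11:58571106-58572116) and Olfr315 (chr11:58591591-58592588) follow each other on chromosome 11 and ended at 8.82%, 6.93% and 41.6%. Olfr316 had its measured CpGs in the 2 kb downstream and began at 42.2%, whereas the others were measured in coding sequence and began above 90%. Olfr225 (chr11:59426468-59427727), in the same cluster, ended at 57.9%.

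Across all Olfr genes, 5 CpGs outside CCGG and TCGA were at 80% or more in both libraries, and they lay in Olfr225, Olfr268-ps1, Olfr455, Olfr1395 and Olfr650-ps1. Their Dnmt1+/+ levels were 100%, 100%, 98.5%, 100% and 100%, and their Dnmt1-/- levels 88.0%, 80%, 89.1%, 92.9% and 83.3%. None of the 5 passed the test, with 12 to 64 calls behind the Dnmt1-/- values.

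Low methylation in Dnmt1+/+ MEFs was rare and concentrated in few genes. Of the 441 CpGs outside CCGG and TCGA, 19 were at 20% or less in Dnmt1+/+, in 8 models, and 10 of the 19 lay in Olfr94 (chr17:37333653-37334956). These 10 also lie within 2 kb of Ubd, which encodes the ubiquitin-like protein FAT10, so that their level cannot be given to either gene alone. In the Olfr94 stretch above, the 6 measured CpGs were all low, between 2.13% and 10.6% in the Dnmt1+/+ library and between 0% and 4.17% in the Dnmt1-/- library, with 46 to 48 calls each, in sequence with 21 or more neighbouring CpGs within 100 bp to either side. Nearer the start of the same coding sequence, CpGs at 200 and 209 bp from the annotated gene start went from 100% and 93.3% of 30 calls to 30.0% and 23.3% of 30 calls. Outside CCGG and TCGA, Olfr94 thus changed from methylated to nearly unmethylated along a single coding sequence in Dnmt1+/+ MEFs, and its mean over 13 CpGs went from 24.5% to 6.6%.

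**Figure D5:**
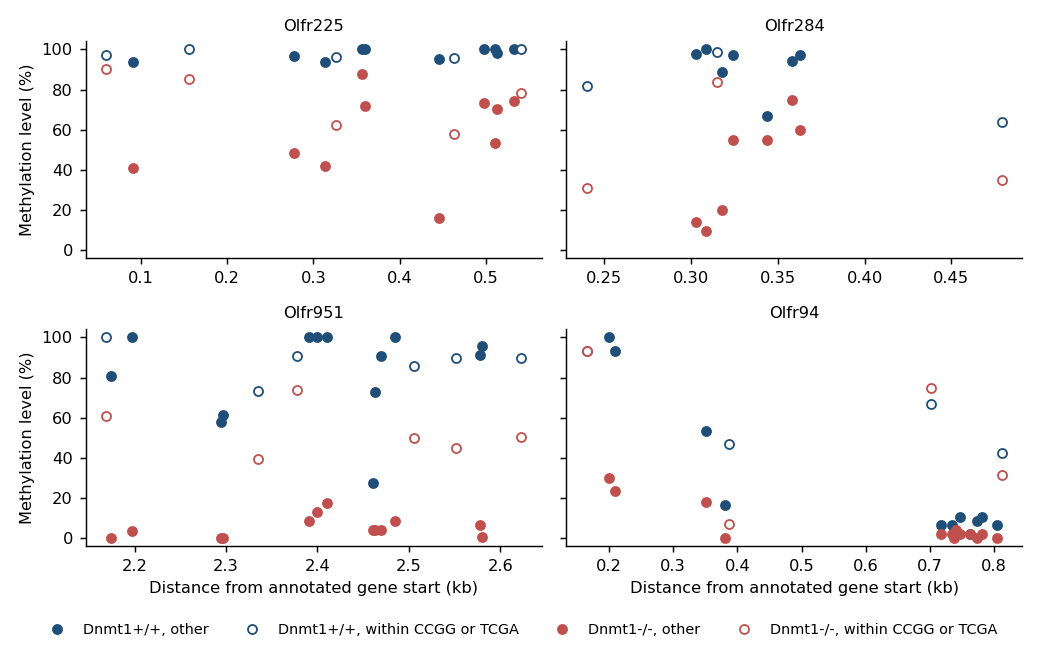
Methylation level (y axis, %) of each measured CpG of Olfr225, Olfr284, Olfr951 and Olfr94 by distance from the annotated gene start in kb (x axis), in Dnmt1+/+ (blue) and Dnmt1-/- (red); filled points lie outside CCGG and TCGA and open points inside. Olfr225 keeps much of its methylation in Dnmt1-/-, Olfr951 keeps almost none outside CCGG and TCGA, and Olfr284 changes over a short distance. Outside CCGG and TCGA, Olfr94 is nearly unmethylated in both libraries towards the end of its coding sequence.

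The other genes with a low Dnmt1+/+ level were Olfr820 (30.0% to 10.3% over 3 CpGs upstream, with 10 calls per CpG in Dnmt1+/+), the pseudogene Olfr1127-ps1 (36.2% to 7.60% over 8 CpGs), Olfr316 (42.2% to 6.93%) and Olfr862 (52.8% to 2.08%). Olfr573-ps1, among those with the smallest fall, went from 60.6% to 30.8% over 3 CpGs upstream. These genes had less to lose, and only Olfr94 and Olfr1127-ps1 among them rest on more than 3 CpGs outside CCGG and TCGA.

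The best covered genes also lost most of their methylation, but their CpGs outside CCGG and TCGA all lay outside coding sequence. Olfr56, whose model spans 48792391 to 48948889 on chromosome 11 and has 37 measured CpGs, 35 of them in other exons or introns, went from 88.9% to 18.9% over the 13 outside CCGG and TCGA. Olfr288 on chromosome 15, with 26 CpGs all outside its coding sequence, went from 86.6% to 7.61% over 8. Olfr951 on chromosome 9 has 19 CpGs, all in the 2 kb downstream, and went from 82.9% to 5.53% over 13. Its most deeply read CpGs, 2578 and 2580 bp from the gene start, went from 91.2% and 95.6% of 113 calls to 6.83% and 0.621% of 161 calls (adjusted p = 6.0e-47 and 1.6e-65, Fisher's exact test).

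Genes that act with the receptors were looked at beside them, namely 20 genes of odorant signalling, receptor trafficking and receptor choice. Of these, 18 had at least 5 CpGs with 3 outside CCGG and TCGA, 10 of the 18 were lower by at least 25 points there, against 45.3% of all such gene models, and none was higher. Their median levels were 47.9% and 13.4%, against 36.0% and 10.3% over all 21635 such gene models. The members varied widely. Cngb1, a subunit of the olfactory cyclic nucleotide-gated channel, went from 86.4% to 14.6%, Ano2, the calcium-activated chloride channel, from 82.5% to 11.8%, and Stoml3, a stomatin of the sensory cilia, from 76.6% to 12.2%. Cnga4, another subunit of the same channel, went from 82.5% to 57.1% over 3 CpGs.

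The receptor transporters Rtp1 and Rtp2, which bring olfactory receptors to the cell surface, kept more, going from 90.4% to 39.3% over 4 CpGs and from 94.9% to 41.3% over 21. Gnal, the olfactory G protein subunit, went from 22.4% to 7.51%, and Adcy3, the adenylyl cyclase it activates, from 39.8% to 16.7%. Gng13, a G protein gamma subunit, went from 35.0% to 21.4%, and Slc24a4, the calcium exchanger of the sensory cilia, from 34.6% to 10.4%. Lhx2, a transcription factor needed for Olfr expression, began low at 9.02% and was at 10.5% in Dnmt1-/- MEFs, with 11 CpGs called lower and 17 called higher of 232 measured, against 43.7% and 0.462% of the table. Omp, the marker of mature olfactory neurons, had 3 CpGs and was not counted.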

How the data were processed

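Per the labels, bisulfite libraries of Dnmt1+/+ and Dnmt1-/- MEFs were made by a commercial service, and the submitters' processing notes name Bismark and mm9; versions and enzymes are not given in the sources used here. The authors deposited 1 table with the percent methylation and the count of calls per CpG in each library, after leaving out CpGs with fewer than 10 calls in either. All positions fell on CG after adding 1 to the 0-based start. Methylated calls were recovered from percent and depth, which gave whole numbers (within 0.001) for all CpGs. Windows, clusters (gap over 1 Mb) and neighbours (within 100 bp) were computed from GENCODE and the mm9 sequence with Python 3.11.15, pandas 2.3.3, pysam 0.24.0 and scipy 1.17.1. Each CpG was tested by Fisher's exact test, 2-sided, with Benjamini-Hochberg adjustment over all 1790826 CpGs; the script was tested on simulated data. Group means weight CpGs equally. For 61 Olfr models with at least 5 CpGs, 3 of them outside CCGG and TCGA, the text names the 5 largest and 5 smallest falls, the 5 highest Dnmt1-/- and 5 lowest Dnmt1+/+ levels, and the 3 with most CpGs, plus listed known receptors and examples from 20 listed signalling genes; Olfr464 was named for its MAYDRY CpG. The rule would also have named CpGs called higher, of which there were none. Members, lists and tests were chosen with earlier results of these data known. Of the 20 listed genes, Cnga2 had no measured CpG, and this list used the longest model per symbol.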

Additional observations from a re-analysis of the deposited data

How the results depend on the processing

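Of 83 alternatives to 20 results, 31 stayed within the counting interval of the main value, or within 1.5 times a main count, and 52 moved. A reversal of sign could be recorded only for the difference between Olfr and other genes, where none occurred. No paired analysis was possible because there was 1 library per genotype. Main values here use all CpGs.

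Leaving out CCGG and TCGA took the Olfr means from 82.6% and 38.8% (Dnmt1+/+, Dnmt1-/-) to 81.1% and 15.2%, and using only them gave 83.6% and 53.9%. It also gave shares of 4.31% low in Dnmt1+/+, 72.6% low and 1.13% high in Dnmt1-/-, 391 CpGs lower, cluster Dnmt1-/- means from 1.32% (9 CpGs) to 24.6% with 21.6% in the beta-globin cluster, and 30 of 31 genes lower. The Dnmt1-/- means became 19.7% in coding sequence, 16.2% in other exons, introns and pseudogenes, 12.4% upstream, 10.2% downstream, 11.4% between the windows and 13.9% outside the clusters. The share of the Dnmt1+/+ level kept in Dnmt1-/- MEFs was lower in Olfr than in other genes by a difference of -11.2 points over all CpGs and -19.996 without CCGG and TCGA.

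That difference was -0.29, -10.4, -14.1 and -41.1 points in the 4 density classes over all CpGs, so it nearly vanished in the sparsest class, where the CpGs outside CCGG and TCGA still differed (10.7% against 29.4%). It was -15.3 points at depths of at least 20 and -9.86 in gene bodies.

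Rescaling CCGG and TCGA gave means of 73.8% and 22.2%. Gene bodies gave 84.3% and 40.2% with 375 CpGs lower, windows of 5 kb 80.7% and 37.7%, and means over genes 80.9% and 42.2%. Pooled calls gave 37.6% in Dnmt1-/-. Leaving out CpGs near other genes, chosen after seeing the data like the splits by flanking bases, by density within parts and by single genes and the pooling of calls per gene, gave 83.2% in Dnmt1+/+. So chosen too, leaving out the 5 models highest in Dnmt1-/- took the coding Dnmt1-/- mean from 39.7% to 37.9%.

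At depths of at least 20 the Dnmt1-/- mean was 37.6%, 430 of 605 CpGs were lower, and the Dnmt1-/- means were 27.4% to 58.1% over clusters, 39.2% in the beta-globin cluster, 37.8% in other exons, introns and pseudogenes and 34.9% downstream. With limits of 10% and 90% the shares were 1.06% low and 50.8% high in Dnmt1+/+, and 26.4% and 7.36% in Dnmt1-/-. Genes lower numbered 157 of 162 with at least 3 CpGs, 21 of 22 with at least 10, and 39 of 83 by 50 points. Flanks of 200 kb gave 31.8% outside the clusters, against 31.3%. With a median of 3 CpGs per gene and 23 calls per CpG, small differences between genes were not detectable at this depth.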
